A study of Mus musculus with 16 samples.

Results

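The cytosolic ribosomal protein genes encode the proteins of the small and the large subunit of the ribosome. They were taken here as the protein-coding genes of the mouse RefSeq table for GRCm38.p6, the assembly of mm10, whose symbol is Rpl or Rps followed by a number, with the Rps6k kinases left out. This gave 87 of 21900 protein-coding genes, of which 30 were small-subunit genes, 43 were large-subunit genes and 14 were paralogs, retrogenes or genes that share only the start of the symbol. The measurement was ChIP-seq of H3K27 acetylation (H3K27ac), which marks the histones of active promoters and enhancers, in mouse liver, as read counts over 52645 genomic regions. A region was given to the gene that holds its midpoint or, in no gene, to the nearest protein-coding gene within 50 kb, and its counts were summed per gene. In all, 151 regions, or 0.287% of all regions, fell to 79 of the 87 genes.

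The 12 H3K27ac libraries formed 4 groups of 3: NCoR1 knockout (KO) on PTU/LID, KO on chow, wild type (WT) on PTU/LID and WT on chow. NCoR1 is a corepressor that nuclear receptors, thyroid hormone receptors among them, use to recruit histone deacetylases to their target genes. PTU/LID is an iodine-poor diet with 0.15% propylthiouracil, a drug that blocks thyroid hormone synthesis. Diets began at 6 weeks of age and lasted 3 weeks, and liver was taken on day 21 in every group. Both genotypes carry the strain background label C57BL/6J. How and in which cells NCoR1 was deleted, and whether each library is a separate animal, are not in the labels, so p-values measure the spread between libraries. Where values are given per library, they stand in the order Ptulid_NCoRKO_27ac_211, Ptulid_NCoRKO_27ac_232 and Ptulid_NCoRKO_27ac_239 for KO PTU/LID, Chow_NCoRKO_27ac_122, Chow_NCoRKO_27ac_146 and Chow_NCoRKO_27ac_190 for KO chow, Ptulid_WT_27ac_135, Ptulid_WT_27ac_155 and Ptulid_WT_27ac_280 for WT PTU/LID, and Chow_WT_27ac_96, Chow_WT_27ac_99 and Chow_WT_27ac_106 for WT chow. The 4 input libraries are not analysed here.

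Ribosomal protein genes are active in nearly every cell, since growth needs the ribosomal proteins in matched amounts. Their promoters are typically short and rich in C and G, often hold sites for ETS-family factors such as GABP, for Sp1 and for YY1, and mostly lack a TATA box. Transcription starts inside a run of pyrimidines, the terminal oligopyrimidine tract, through which mTOR controls the translation of the mRNA. For this steadiness the genes are often used as a reference level, so their medians are also given below under several scalings of the libraries.

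Depth ran between 2965505 counts in Chow_WT_27ac_96 and 7416187 counts in Ptulid_NCoRKO_27ac_232, and mitochondrial DNA took between 0.717% and 17.2% of counts. Regions of the targeted gene Ncor1 averaged 52.9 CPM (reads per 1e6 counts, TMM-scaled) in KO PTU/LID, 52.8 CPM in KO chow, 53.4 CPM in WT PTU/LID and 53.9 CPM in WT chow. Those ranges overlapped, and acetylation summed over the whole gene does not check a deletion. All 10 hepatocyte markers carried regions, with a summed level of 3139 to 4882 CPM over the libraries, and so did 7 of 8 endothelial markers (all but Kdr), at 613 to 830 CPM. Regions also lay at 3 of 8 Kupffer cell and macrophage markers (32.3 to 63.6 CPM), 2 of 5 cholangiocyte markers (35.5 to 68.9 CPM), 2 of 6 lymphocyte markers (48.9 to 139 CPM) and 2 of 7 stellate markers (3.80 to 11.6 CPM). Among the markers without a region were Adgre1 and Clec4f of Kupffer cells, Krt19 and Epcam of cholangiocytes, Cd3e of lymphocytes and Lrat of stellate cells. In bulk liver, fewer cells of a type and less signal per cell cannot be told apart.

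The start-site sequences below are shown because the acetylated regions lie around them. They are the promoter windows of Rpl27a, Rps21, Rpl19 and Rpl7a. Rpl27a and Rps21 passed a test described further on, and Rpl19 had the highest level. Rpl7a had the longest pyrimidine run at the start site among the 67 ribosomal protein genes in the promoter table. Each window runs 5′ to 3′ on the + strand from 200 bases before the start site through the first 20 transcribed bases (RefSeq, GRCm38.p6). They cover chr7:109518995-109519214 for Rpl27a, chr2:180257179-180257398 for Rps21, chr11:98026510-98026729 for Rpl19 and chr2:26910607-26910826 for Rpl7a. Capitals mark matches to the ETS motif letters CCGGAAG on either strand and the longest pyrimidine run at the start site. The table gives 2 start sites each for Rps21 and Rpl19, and the first listed is shown.
Rpl27a: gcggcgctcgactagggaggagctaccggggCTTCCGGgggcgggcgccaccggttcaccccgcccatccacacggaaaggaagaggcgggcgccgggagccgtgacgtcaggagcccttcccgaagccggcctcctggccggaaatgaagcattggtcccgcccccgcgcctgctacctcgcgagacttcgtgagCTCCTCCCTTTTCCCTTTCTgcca
Rps21: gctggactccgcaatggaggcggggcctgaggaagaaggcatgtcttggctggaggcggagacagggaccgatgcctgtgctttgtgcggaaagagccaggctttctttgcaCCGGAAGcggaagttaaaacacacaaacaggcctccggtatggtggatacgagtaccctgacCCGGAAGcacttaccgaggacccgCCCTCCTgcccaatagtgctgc
Rpl19: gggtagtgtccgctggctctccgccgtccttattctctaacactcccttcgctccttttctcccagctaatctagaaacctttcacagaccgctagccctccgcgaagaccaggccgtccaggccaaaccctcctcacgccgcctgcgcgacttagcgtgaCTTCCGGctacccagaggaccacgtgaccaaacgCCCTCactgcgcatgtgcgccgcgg
Rpl7a: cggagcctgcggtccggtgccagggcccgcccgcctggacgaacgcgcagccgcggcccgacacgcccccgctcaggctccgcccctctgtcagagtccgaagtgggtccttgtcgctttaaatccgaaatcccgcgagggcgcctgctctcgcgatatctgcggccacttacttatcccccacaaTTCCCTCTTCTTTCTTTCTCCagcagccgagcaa
Rpl27a had 1 match to the ETS letters and a pyrimidine run of 20 bases across the start site. Rps21 had 2 matches and a run of 7 bases, Rpl19 had 1 match and a run of 5 bases just before the start site, and Rpl7a had no match in this window and a run of 21 bases. With its other start site included, the longest run of Rpl19 was 11 bases.

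The RefSeq promoter table held 67 of the 87 genes. Over the table's full window of 250 bases before to 50 after the start site, searched on both strands, CCGGAAG was found in 24 of the 67 (35.8%), against 12.9% of all 17492 genes in the table. The YY1 letters AAGATGGC were found in 6 (8.96%, against 3.57%), and the CRE letters TGACGTCA in 5, among them Rpl27a (7.46%, against 2.54%). Shares were closer for the Sp1 letters GGGCGG, found in 38 (56.7%, against 49.2%), the TATA letters TATAAA, found in 8 (11.9%, against 14.8%), and the E-box letters CACGTG, found in 6 (8.96%, against 8.91%). The longest pyrimidine run touching the 10 bases on either side of the start site had a median of 7 bases, against 5 in all genes, and reached at least 8 bases in 30 of 67 genes (44.8%), against 16.2% of all genes. A gene with several start sites counted once, by any of its windows for the motifs and by its longest run. No motif searched contains another, and these are matches of letters with no binding measured. Genes without an entry included Rpl17, Rpl21, Rpl23a, Rpl29, Rpl3, Rpl30, Rpl32, Rpl34-ps1, Rpl36, Rpl7, Rpl8, Rps14, Rps20, Rps27a and Rps29.

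Acetylated regions lay close to the starts of most of these genes and often left the start itself uncovered. For a gene with several start sites the best covered was used. Of the 67 start sites, 28 (41.8%) lay inside a region, 14 (20.9%) lay between an upstream and a downstream region, 14 (20.9%) had a region only downstream, 3 (4.48%) had one only upstream and 8 (11.9%) had none within 1 kb. Over all genes in the table, 22.9% of starts lay inside a region, 10.1% lay between 2 regions and 54.4% had none within 1 kb. Among genes with a region within 1 kb the shares inside a region were 47.5% for the ribosomal protein genes, against 50.2% for all genes, and the shares between 2 regions were 23.7%, against 22.1%. In 18 of the 28 starts inside a region the upstream edge of that region was less than 60 bp away, as in Rpl27a and Rpl7a. This also held for the start of Rps21 that is not printed above. The printed start of Rps21 lay between the regions chr2:180256047-180257216 and chr2:180257410-180257719 and inside neither. Where a start lay between 2 regions, the median distance was 140.5 bp to the upstream and 44 bp to the downstream region, against 145 and 64 bp over all 1763 such genes.

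**Figure D1:**
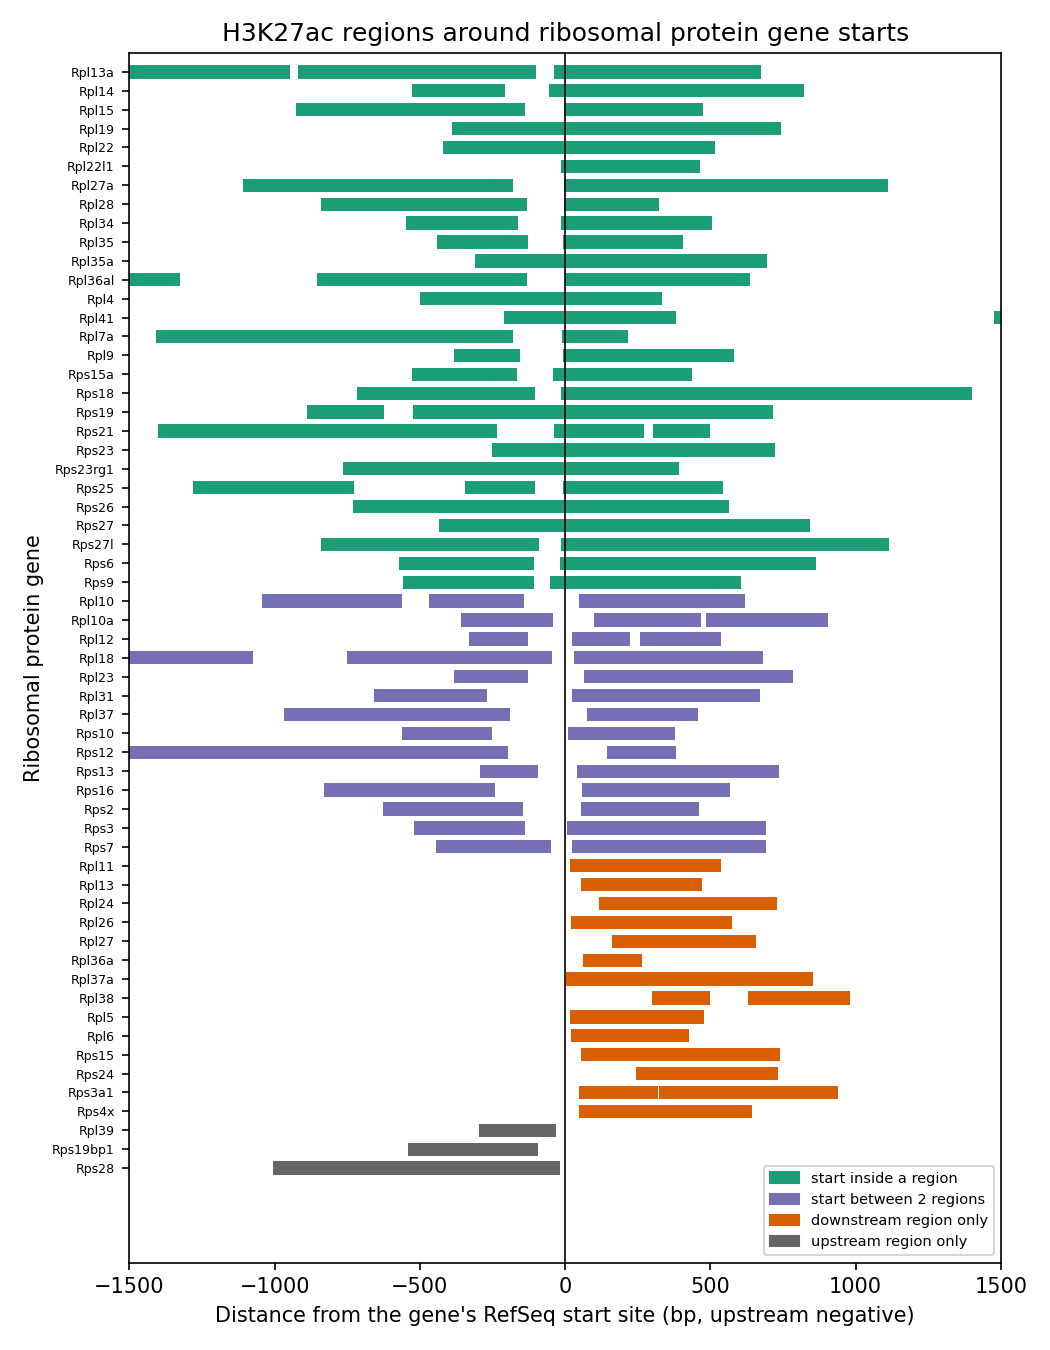
H3K27ac regions (bars) within 1500 bp of the RefSeq start site (vertical line) of the 59 ribosomal protein genes with a region within 1 kb, 1 row per gene, with distance in bp on the x axis and upstream negative. Colours give the position of the start: 28 inside a region, 14 between 2 regions, 14 with a downstream region only and 3 with an upstream region only; regions are drawn whichever gene they were assigned to.

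Of the 151 regions, 89 had their midpoint inside the gene, 46 lay within 2.5 kb of it and 16 lay farther away. Their median length was 480 bp, against 468 bp over all regions. Genes had 1 to 5 regions each, with a median of 2, the same median as over all 11586 genes tested. The 8 genes with no region were Rps28, the only one among the small-subunit genes, and the paralogs or retrocopies Rpl10l, Rpl31-ps12, Rpl32l, Rpl34-ps1, Rpl37rt, Rpl39l and Rps27rt. For Rps28, the region that lay just upstream of its start had its midpoint in or nearest to another gene. All 43 large-subunit genes had at least 1 region. Of the 4 regions of Rpl18, 3 were also counted for Sphk2, and 1 region of Rpl35a was also counted for Iqcg. Many processed pseudogenes copy these mRNAs (310 symbols of this pattern that are not protein-coding were left out), so reads inside the genes may be shared with near-identical copies.

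All 79 genes with a region passed the filter on low counts. Their median level was 27.6 CPM, against 36.9 CPM over all genes tested; per kb of acetylated region it was 26.3 CPM, against 24.4 CPM. The spread between libraries of a group had a median SD of 0.22 on the log2 CPM scale, against 0.21 over all genes. Rpl19 of the large subunit stood highest at 99.2 CPM per kb of region, with a span of 116 to 154 CPM over the 12 libraries. It was followed by Rps23 (50.8 CPM per kb), Rps26 (49.7 CPM per kb), Rpl21 (47.4 CPM per kb), Rpl32 (46.0 CPM per kb) and Rpl7 (44.8 CPM per kb). These 5 lay closer together than the spread between libraries, and Rpl19 lay above that spread. The lowest were Rpl7l1, a paralog of Rpl7, at 13.2 CPM per kb, Rpl38 at 15.4, Rps24 at 15.8, Rpl41 at 17.7, Rpl11 at 17.8 and Rpl6 at 18.5 CPM per kb, and neighbours in this order differed by no more than the spread. Of the regions of Rpl11, only chr4:136052855-136053375 had its midpoint in the gene, and the others lay 36783 to 42687 bp away. Rpl7l1 had no region within 1 kb of its start site. Rpl12 varied least, with 1.18 times between its highest and lowest library, and Rpl38 most, with 4.06 times, at a mean of 8.47 CPM; both were picked after their values were seen.

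With TMM scaling, the median log2 fold change of the ribosomal protein genes lay between -0.09 and 0.00 in the 5 comparisons, and 2 genes passed the test in 1 of 5 comparisons. On PTU/LID, H3K27ac at Rpl27a and Rps21 was lower in KO livers than in WT livers. No gene of the set passed for either diet comparison, for KO against WT on chow or for the interaction of diet and genotype. Tests were edgeR's quasi-likelihood test with Benjamini-Hochberg adjustment over all 11586 genes, at an adjusted p below 0.05, and DESeq2 gave the same 5 counts. For KO against WT on PTU/LID, DESeq2 gave no adjusted p for 13 of the 79 genes, and for the interaction none for 25.

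**Figure D2:**
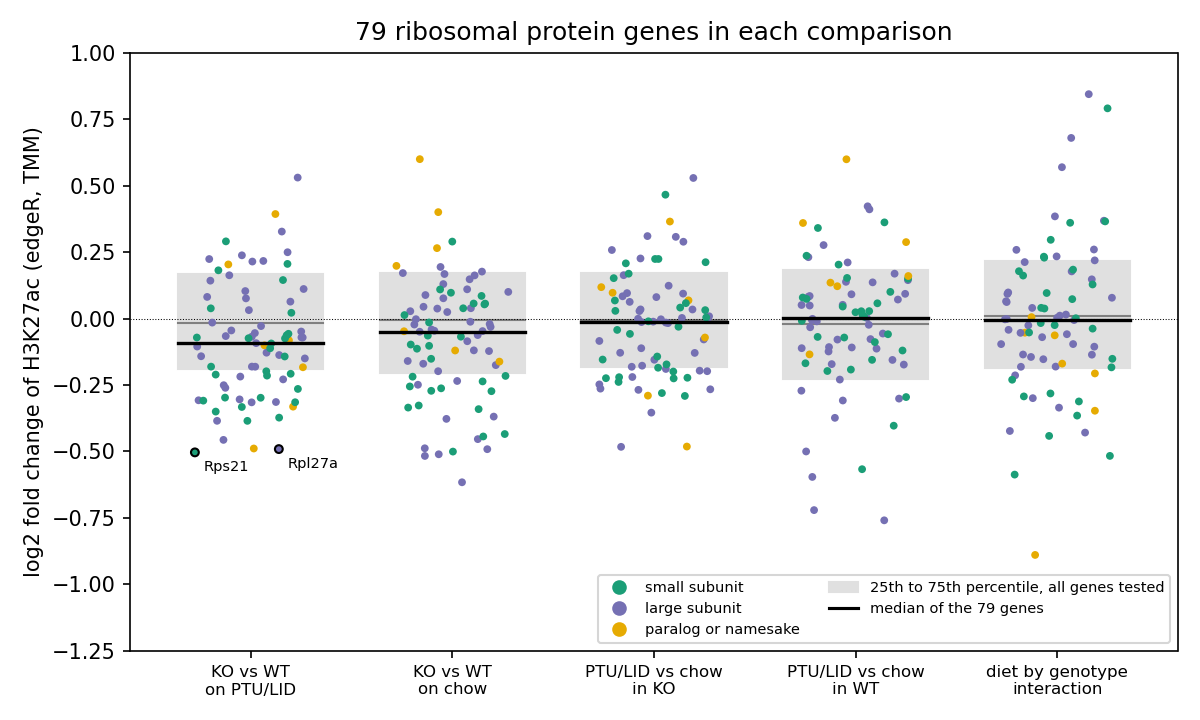
Log2 fold change of H3K27ac (y axis, edgeR, TMM scaling) for each of the 79 ribosomal protein genes (points, coloured by class) in each of 5 comparisons (x axis), with the median of the 79 genes (black line) and the median and the 25th to 75th percentile of all 11586 genes tested (grey line and box). The 2 ringed genes, Rps21 and Rpl27a, passed an adjusted p below 0.05; the medians of the 79 genes lie between -0.09 and 0.00.

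KO against WT livers on PTU/LID gave the only calls, 2 genes lower (2.53% of the 79) and none higher, against 1.28% of all genes tested called lower, 5.33% called higher and 6.6% called in either direction. An unadjusted p below 0.05 was reached by 3 of the 79 genes (3.80%, against 18.9% of all genes). Rpl27a, a large-subunit protein, had 58.6, 61.3 and 59.2 CPM in KO PTU/LID libraries, against 89.2, 80.1 and 83.2 CPM in WT PTU/LID libraries. The groups did not overlap, and every KO PTU/LID library lay below every other library of the study. On chow it had 65.7, 65.8 and 74.0 CPM in KO libraries and 71.3, 65.5 and 77.3 CPM in WT libraries, which overlapped. The log2 fold change on PTU/LID was -0.49 ± 0.12 (SE), or 0.711-fold, with an edgeR adjusted p of 0.0103. Without Ptulid_NCoRKO_27ac_239 the edgeR adjusted p was 0.0512, and in the other 25 alternatives it was called.

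Rps21, a small-subunit protein, had 44.9, 35.7 and 30.9 CPM in KO PTU/LID livers, against 51.6, 50.2 and 54.2 CPM in WT PTU/LID livers. These groups did not overlap either, with Ptulid_NCoRKO_27ac_211 nearest to WT. KO chow livers had 42.6, 49.9 and 41.4 CPM and WT chow livers 50.7, 46.0 and 37.3 CPM, so the chow groups overlapped. The log2 fold change on PTU/LID was -0.50 ± 0.15 (SE), or 0.705-fold, with an edgeR adjusted p of 0.0477. Over the 26 alternatives that p ran between 0.00915 and 0.269, and 15 kept the call. Among the left-out libraries it was lost without Ptulid_NCoRKO_27ac_232 (0.143), Ptulid_NCoRKO_27ac_239 (0.269), Chow_NCoRKO_27ac_122 (0.0613), Chow_NCoRKO_27ac_190 (0.0541), Ptulid_WT_27ac_135 (0.0633), Ptulid_WT_27ac_155 (0.0866), Ptulid_WT_27ac_280 (0.152), Chow_WT_27ac_96 (0.0508) or Chow_WT_27ac_99 (0.0638). It was also lost with regions within 2.5 kb only (0.0831) and with a term for total counts (0.227).

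At both genes most of the difference in CPM lay in the region just upstream of the start. The Rpl27a region chr7:109518087-109519014, whose midpoint lies 645 bp upstream of the gene, averaged 31.5 ± 3.98 CPM in KO PTU/LID, against 48.7 ± 2.63 CPM in WT PTU/LID (SD, n = 3 each). It was the only region of the 150 tested here that passed at region level in this comparison (-0.62 ± 0.17 (SE), edgeR adjusted p = 0.0289), against 3.86% of all regions called. Its downstream partner, chr7:109519192-109520308, averaged 22.6 ± 3.01 CPM in KO PTU/LID, against 30.3 ± 0.781 CPM in WT PTU/LID, and did not pass (-0.43 ± 0.18 (SE), edgeR adjusted p = 0.205). The Rps21 region chr2:180256047-180257216, 748 bp upstream, averaged 23.2 ± 3.33 CPM in KO PTU/LID, against 35.0 ± 5.25 CPM in WT PTU/LID, and did not pass either (-0.60 ± 0.19 (SE), edgeR adjusted p = 0.0641). The differences between upstream and downstream regions were not tested.

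Depth and 3 marker lists moved with these 2 calls, depth in 2 of the 3 KO libraries. Total counts were 3719180, 7416187 and 7084675 in KO PTU/LID, against 3095704, 4546159 and 4729424 in WT PTU/LID. Summed endothelial markers (7 of 8 with a region, Kdr without) ran between 613 and 651 CPM in KO PTU/LID, against 678 to 767 CPM in WT PTU/LID. Lymphocyte markers (2 of 6 with a region) ran between 72.5 and 73.9 CPM in KO PTU/LID, against 48.9 to 66.3 CPM in WT PTU/LID. Of these 2, Cd4 averaged 46.2 CPM in KO PTU/LID, against 32.0 CPM in WT PTU/LID, and Ptprc 26.9 CPM, against 27.1 CPM. Stellate markers (2 of 7) ran between 3.80 and 7.15 CPM in KO PTU/LID, against 7.23 to 8.72 CPM in WT PTU/LID. In the other lists the groups overlapped, for hepatocyte (4674 to 4882 CPM in KO PTU/LID, against 3139 to 4763), Kupffer cell (3 of 8; 32.3 to 46.3 CPM, against 33.0 to 34.7) and cholangiocyte markers (2 of 5; 43.1 to 58.5 CPM, against 48.7 to 68.9). The part of the cell markers in the result was not tested. With a term for total counts, chosen after seeing the data, Rpl27a was still called and Rps21 was not.

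**Figure D3:**
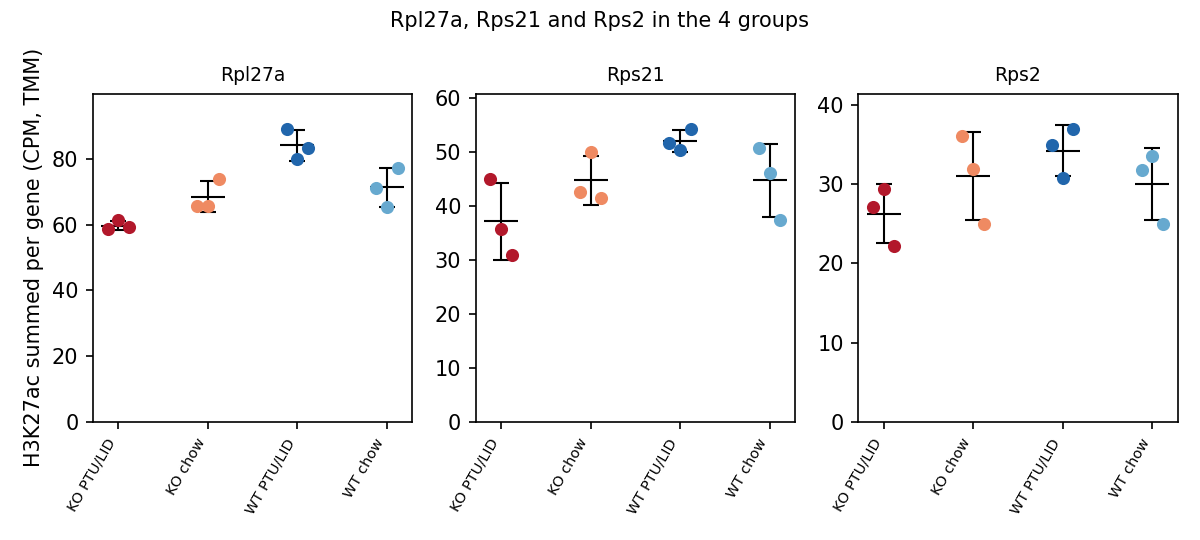
H3K27ac summed per gene (y axis, TMM-scaled CPM) in each library (points) of the 4 groups for Rpl27a, Rps21 and Rps2, which had small p-values and lower means in KO than in WT on PTU/LID, with bars for the mean and SD (n = 3). Rpl27a lies between 58.6 and 61.3 CPM in KO PTU/LID, below all other libraries, and Rpl27a and Rps21 passed the test while Rps2 did not.

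Other genes with a small p in KO against WT on PTU/LID did not pass. Rps2 had 27.2, 29.4 and 22.2 CPM in KO PTU/LID, against 35.0, 30.7 and 37.0 CPM in WT PTU/LID (-0.39 ± 0.17 (SE), edgeR adjusted p = 0.223). The groups did not overlap at Rps2, which encodes a small-subunit protein. Rps23rg1, a retrogene of Rps23, had 24.0, 30.8 and 29.0 CPM in KO PTU/LID, against 21.9, 18.3 and 24.0 CPM in WT PTU/LID (0.39 ± 0.19 (SE), edgeR adjusted p = 0.269). Fold changes of the 79 genes ran between -0.50 and 0.53 with a median of -0.09, against -0.02 over all genes; 56 were negative (70.9%, against 52.9% of all genes). The median was -0.18 over 29 small-subunit genes, of which 23 were negative, and -0.07 over 43 large-subunit genes, of which 28 were negative. Groups did not overlap in 9 genes that were lower (11.4%, against 9.05% of all genes) and in 1, Rps26, that was higher (1.27%, against 11.6%). Rps26 had 67.8, 69.7 and 73.8 CPM in KO PTU/LID, against 58.8, 63.1 and 64.2 CPM in WT PTU/LID.

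KO against WT livers on chow gave no call by edgeR or DESeq2, with 7 of 79 genes at an unadjusted p below 0.05 (8.86%, against 19.7% of all genes), while 4.13% of all genes were called. Fold changes had a median of -0.05, against -0.01 over all genes, and 50 of 79 were negative (63.3%, against 50.9% of all genes). Endothelial markers summed to 629 to 653 CPM in KO chow, against 789 to 830 CPM in WT chow, Kupffer cell and macrophage markers to 32.5 to 36.4 CPM, against 46.6 to 63.6 CPM, and stellate markers to 4.68 to 7.69 CPM, against 10.1 to 11.6 CPM. Lymphocyte markers summed to 103 to 139 CPM in KO chow, against 96.8 to 100.4 CPM in WT chow. The 2 markers in that sum went opposite ways. Cd4 averaged 95.5 ± 18.2 CPM in KO chow, against 64.9 ± 2.16 CPM in WT chow. Ptprc averaged 21.1 ± 1.72 CPM in KO chow, against 33.9 ± 3.64 CPM in WT chow (SD, n = 3 each). The sums of these 4 marker lists separated the chow groups, and the hepatocyte and cholangiocyte lists overlapped. The part of the markers in the ribosomal protein gene values was not tested. Rpl27 of the large subunit had 13.6, 14.3 and 15.9 CPM in KO chow livers, against 21.7, 19.5 and 21.4 CPM in WT chow livers, without overlap (-0.51 ± 0.19 (SE), edgeR adjusted p = 0.115). Rpl31 (-0.49), Rps16 (-0.44) and Rps3 (-0.43), the last a protein at the mRNA entry of the small subunit, had edgeR adjusted p-values between 0.129 and 0.186. Rps23rg1 pointed the other way, with 32.4, 33.4 and 23.4 CPM in KO chow, against 25.5, 17.1 and 17.0 CPM in WT chow (0.60 ± 0.20 (SE), edgeR adjusted p = 0.0777). Groups did not overlap in 11 genes that were lower (13.9%, the same as the 13.9% of all genes) and in 1, Rpl3l, that was higher (1.27%, against 14.6%). Rpl3l, the paralog of Rpl3 known from striated muscle, lay at 7.10, 9.57 and 6.91 CPM in KO chow, against 5.94, 5.79 and 6.01 CPM in WT chow. Its values in all comparisons come from 1 region, which lay outside the gene, 127 bp from its end. That region was 3585 bp downstream of the nearest start site, and no region lay within 1 kb of a start of Rpl3l. At region level none of 150 regions passed in edgeR, while 2.43% of all regions were called. Of the 150, 13 had an unadjusted p below 0.05, a looser threshold that was not counted over all regions.

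PTU/LID against chow within KO gave no call by edgeR or DESeq2, while 7.45% of all genes were called. Of the 79 genes, 4 had an unadjusted p below 0.05 (5.06%, against 20.5% of all genes). Rpl36 had 58.1, 68.3 and 81.0 CPM in KO PTU/LID, against 42.2, 54.2 and 48.2 CPM in KO chow, without overlap (0.53 ± 0.17 (SE), edgeR adjusted p = 0.0644). Rpl30 had 37.8, 20.9 and 28.2 CPM in KO PTU/LID, against 39.1, 43.4 and 36.7 CPM in KO chow, with an overlap through Ptulid_NCoRKO_27ac_211 (-0.48 ± 0.19 (SE), edgeR adjusted p = 0.133). Rpl13a (0.31) and Rpl7l1 (-0.48) had edgeR adjusted p-values of 0.201 and 0.213. The median was -0.01, as over all genes. Groups did not overlap in 6 genes that were lower (7.59%, against 12% of all genes) and in 5 that were higher (6.33%, against 12.9%), namely Rpl10, Rpl36, Rpl5, Rps26 and Rps6, the last a target of the S6 kinases. At region level, where 6.21% of all regions were called, 2 of 150 passed, both more than 2.5 kb from their gene. A region 10423 bp from Rps14, chr18:60763937-60764410, was higher in KO PTU/LID (9.75 ± 1.5 CPM) than in KO chow (4.74 ± 2.19 CPM; SD, n = 3 each; 1.06 ± 0.31 (SE), edgeR adjusted p = 0.0319). One 7628 bp upstream of Rps21, chr2:180249610-180249893, had a lower mean in KO PTU/LID (2.09 ± 0.526 CPM, SD) than in KO chow (4.82 ± 2.28 CPM, SD). Its log2 fold change was -1.26 ± 0.38 (SE), with an edgeR adjusted p of 0.0401. These groups overlapped, with Chow_NCoRKO_27ac_122 at 2.36 CPM and Ptulid_NCoRKO_27ac_211 at 2.56 CPM. Counts were low, at 10, 11 and 15 in KO PTU/LID and 13, 28 and 45 in KO chow.

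PTU/LID against chow within WT gave no call by edgeR or DESeq2 either, with 6 of 79 genes at an unadjusted p below 0.05 (7.59%, against 23.5% of all genes), while 7.61% of all genes were called. Rpl5, which carries a ribosomal RNA into the large subunit and binds Mdm2, had 48.4, 53.7 and 64.5 CPM in WT PTU/LID, against 39.1, 47.5 and 39.4 CPM in WT chow, without overlap (0.41 ± 0.14 (SE), edgeR adjusted p = 0.0775). That value came from a region far from the gene. The region chr5:107889883-107890919, 10107 bp from Rpl5, averaged 36.5 ± 5.91 CPM in WT PTU/LID, against 22.2 ± 4.17 CPM in WT chow (SD, n = 3 each), and was the 1 region of 150 that passed (0.73 ± 0.19 (SE), edgeR adjusted p = 0.0259), against 3.7% of all regions called. With regions within 2.5 kb only, the fold change of Rpl5 was -0.11. Rpl22 (0.42), Rps25 (-0.57), Rps23 (0.34) and Rpl3l (0.60) had edgeR adjusted p-values between 0.130 and 0.198. The median was 0.00, against -0.02 over all genes. Groups did not overlap in 6 genes that were lower and 6 that were higher (7.59% each, against 14.1% and 11.5% of all genes).

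The interaction is the diet change in KO minus the diet change in WT. For it no gene of the set was called by edgeR or DESeq2, while 0.414% of all genes were called. Of the 79 genes, 4 had an unadjusted p below 0.05 (5.06%, against 10.4% of all genes). Rpl27a had a diet change of -0.20 in KO and 0.23 in WT, an interaction of -0.43 ± 0.16 (SE) with an edgeR adjusted p of 0.36. Rps21 had diet changes of -0.28 in KO and 0.24 in WT, an interaction of -0.52 ± 0.22 (SE) with an edgeR adjusted p of 0.402. The other 3 with the smallest p were Rpl3l (-0.89), Rps25 (0.79) and Rpl22 (-0.42), with edgeR adjusted p-values between 0.421 and 0.554. No region of the 150 passed in edgeR, while 0.23% of all regions were called. An unadjusted p below 0.05, a looser threshold that was not counted over all regions, was reached by 8 of the 150.

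The precision of these comparisons limits what a missed call can say. The median SE of a log2 fold change was 0.18 in the 4 pairwise comparisons and 0.26 for the interaction. The 95% interval lay wholly within 2-fold in either direction for 76 of 79 genes in KO against WT on PTU/LID, 74 in KO against WT on chow, 78 for diet in KO, 73 for diet in WT and 67 for the interaction. Smaller differences were often not detectable at this depth and number of libraries. Rpl19, the highest gene, had 134, 116 and 136 CPM in KO PTU/LID, 129, 121 and 133 CPM in KO chow, 138, 125 and 138 CPM in WT PTU/LID and 154, 123 and 140 CPM in WT chow. Its 95% interval for KO against WT on PTU/LID ran between -0.29 and 0.18.

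A scaling factor moves all genes of a library alike, so another scaling shifts the median of the ribosomal protein genes together with that of all genes and leaves the gap between them nearly fixed by construction. Over 7 scalings, the median for KO against WT on PTU/LID lay between -0.21 with total counts only and -0.09 with TMM from gene sums. For KO against WT on chow it lay between -0.23 with total counts and -0.04 with RLE factors. The median of all genes moved with it: with total counts only it was -0.13 for KO against WT on PTU/LID and -0.19 on chow, and with TMM from distal regions it was -0.13 on PTU/LID. The difference between the median of the 79 genes and that of all genes was -0.08 to -0.07 on PTU/LID and -0.04 on chow. Rpl27a and Rps21 were called under all 7. With total counts only, Rpl27, Rpl31, Rps16 and Rps3 were also called lower in KO on chow, where 7.22% of all genes were, and Rpl36 was called higher on PTU/LID in KO, where 6.59% of all genes were. Neither count of ribosomal protein genes exceeded the share over all genes. For diet in KO the median was 0.08 with total counts and -0.10 with TMM from distal regions, with that of all genes at 0.09 and -0.09, so its sign followed the scaling.

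**Figure D4:**
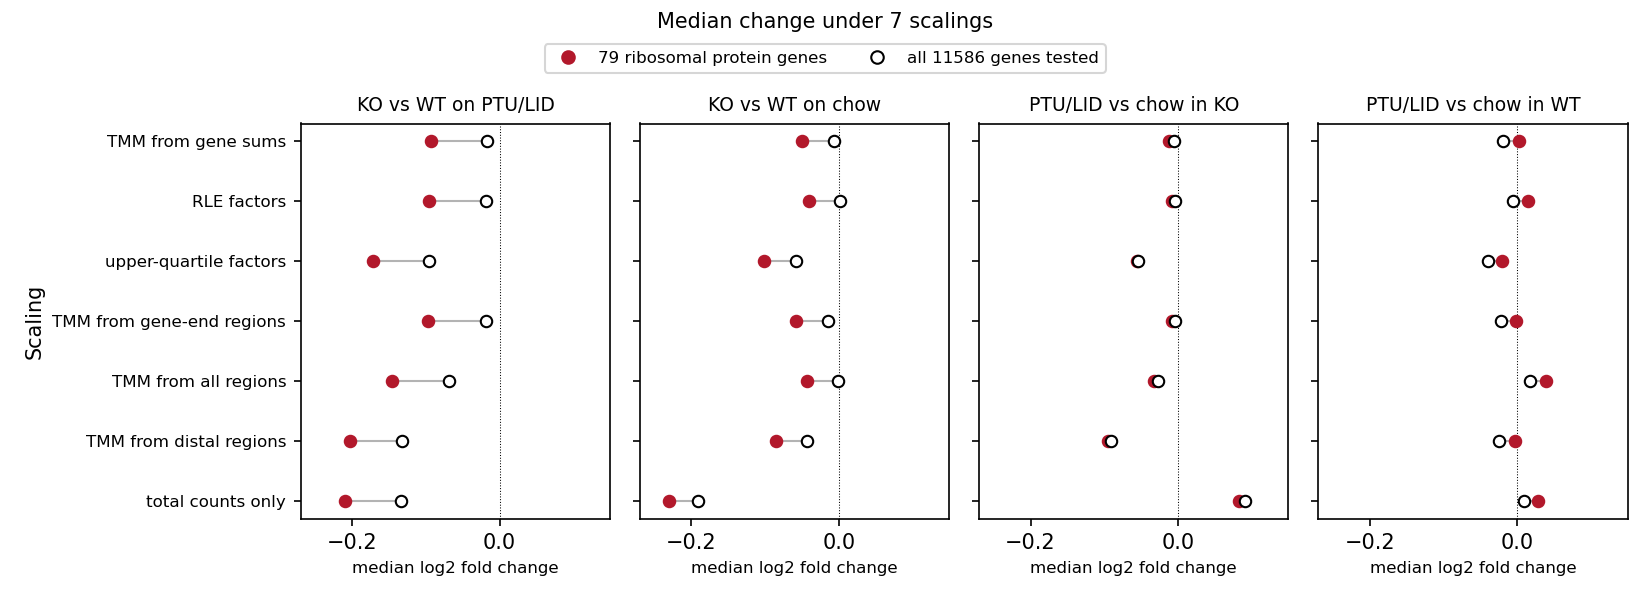
Median log2 fold change (x axis) of the 79 ribosomal protein genes (filled) and of all 11586 genes tested (open) under 7 scalings of the libraries (rows) in the 4 pairwise comparisons (panels). A scaling moves all genes of a library alike, so the filled and open points move together, and the filled points lie left of the open ones by about the same distance in every row of the KO against WT panels.

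The share of all counts that fell in the 151 regions is a level that uses no scaling factor other than the total. It was lower in 5 of 6 KO libraries than in every WT library. With the same total as the scaling, medians over all genes tested were also negative, at -0.13 for KO against WT on PTU/LID and -0.19 on chow. Medians of the 79 genes were -0.21 and -0.23. The share itself was as follows. It was 0.256%, 0.210% and 0.213% in KO PTU/LID libraries, against 0.257%, 0.254% and 0.259% in WT PTU/LID libraries. On chow it was 0.219%, 0.182% and 0.228% in KO libraries, against 0.260%, 0.240% and 0.248% in WT libraries. Wilson 95% intervals reached at most 0.00579 percentage points to either side and cover counting error only. Group means were 0.226 ± 0.026% in KO PTU/LID, 0.210 ± 0.0243% in KO chow, 0.257 ± 0.00292% in WT PTU/LID and 0.249 ± 0.00987% in WT chow (SD, n = 3 each). The lowest, Chow_NCoRKO_27ac_146, was also the library with 17.2% mitochondrial counts. With mitochondrial regions and the nuclear regions that followed them left out of the total, the shares were 0.264%, 0.212% and 0.215% in KO PTU/LID, against 0.268%, 0.257% and 0.263% in WT PTU/LID. On the same footing they were 0.232%, 0.234% and 0.237% in KO chow, against 0.274%, 0.260% and 0.251% in WT chow.

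Depth and cell type markers moved with these shares. The KO libraries held 3719180 to 7416187 counts, and Ptulid_NCoRKO_27ac_211, the 1 KO library with a share inside the WT range, held the fewest of the 6. Chow_WT_27ac_106, with 5831372 counts, kept a share of 0.248%. With a term for total counts the median of the 79 genes was -0.05 for KO against WT on PTU/LID and 0.01 on chow. Without Ptulid_NCoRKO_27ac_211 the median for KO against WT on PTU/LID was -0.20, and without Ptulid_NCoRKO_27ac_239 it was -0.05. Genotype and depth overlap too much in these 12 libraries for their parts in the share to be told apart. Endothelial markers summed to 613 to 653 CPM in the 6 KO libraries, against 678 to 830 CPM in the 6 WT libraries, without overlap. Summed stellate and lymphocyte markers separated the genotypes within each diet, and summed Kupffer cell and macrophage markers did so on chow, with the values given above. Of the 2 lymphocyte markers, only Cd4 had a higher mean in KO on each diet. The part of the markers in the share was not tested.

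**Figure D5:**
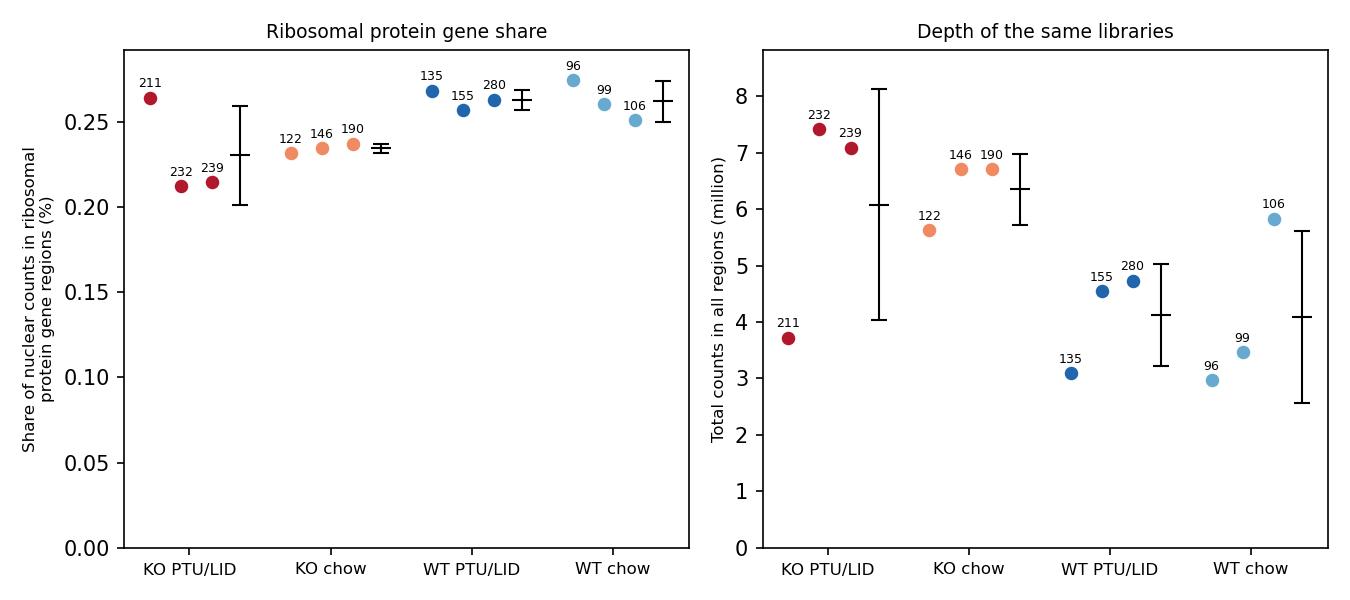
Left, share of nuclear counts (%) in the 151 ribosomal protein gene regions per library, after mitochondrial regions and the nuclear regions that followed them were left out of the total; right, total counts per library in units of 1e6. Points carry the numbers at the end of the library titles and bars give the mean and SD (n = 3); KO libraries other than Ptulid_NCoRKO_27ac_211 lie between 0.212% and 0.237%, below all WT libraries, and Ptulid_NCoRKO_27ac_211 has the fewest counts of the KO libraries.

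Other genes of the translation machinery gave few calls as well. Over all 11586 genes tested, edgeR called 0.414% to 7.61% in the 5 comparisons, and 10.4% to 23.5% had an unadjusted p below 0.05. Among cytosolic ribosomal protein genes with other symbols, Rplp2 had no region, and none of Fau, Rplp0, Rplp1 and Rpsa was called by edgeR or DESeq2 in any of the 5 comparisons, with 1 at an unadjusted p below 0.05 in each diet comparison and none in the others. Fau, whose product carries a small-subunit protein, had a diet change of 0.41 ± 0.14 (SE) in KO (edgeR adjusted p = 0.0783) and 0.40 ± 0.15 (SE) in WT (edgeR adjusted p = 0.096). None of 38 translation factors was called by edgeR or DESeq2 in any comparison, with 0 to 5 at an unadjusted p below 0.05. Among 17 regulators of ribosomal protein genes edgeR called none, with 0 to 4 at an unadjusted p below 0.05, and DESeq2 called 1 higher in KO on PTU/LID.

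The mitochondrial ribosomal protein genes, 70 of them tested, are encoded in the nucleus and serve the ribosome of mitochondria. KO livers had lower H3K27ac at Mrpl55 than WT livers, by -1.41 ± 0.26 (SE, edgeR adjusted p = 0.000994) on PTU/LID and -1.75 ± 0.27 (SE, edgeR adjusted p = 0.000415) on chow. Mrpl14 was higher, at 254 ± 10.7 CPM in KO PTU/LID and 230 ± 6.38 CPM in KO chow, against 173 ± 23.7 CPM in WT PTU/LID and 147 ± 11.6 CPM in WT chow (SD, n = 3 each), with edgeR adjusted p-values of 0.0021 on PTU/LID and 0.00153 on chow. For KO against WT edgeR called 1 gene of the 70 in each direction on each diet, while 6.6% of all genes were called on PTU/LID and 4.13% on chow. DESeq2 gave the same counts on chow and called 1 higher and 3 lower on PTU/LID. The medians were -0.06 on PTU/LID and -0.03 on chow. Both diet comparisons called Mrpl45 higher on PTU/LID, by 0.58 ± 0.15 (SE, edgeR adjusted p = 0.0173) in KO and 0.67 ± 0.15 (SE, edgeR adjusted p = 0.00954) in WT, and WT also had Mrpl19 called higher. These were the only edgeR calls for diet among the 70 genes, 1 in KO and 2 in WT, while 7.45% and 7.61% of all genes were called.

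Among 34 genes of ribosome biogenesis, Nolc1, a nucleolar chaperone of small nucleolar ribonucleoproteins, fell on PTU/LID in both genotypes. It had 12.7 ± 1.91 CPM in KO PTU/LID, against 20.9 ± 3.45 CPM in KO chow, and 9.59 ± 0.357 CPM in WT PTU/LID, against 18.6 ± 5.08 CPM in WT chow (SD, n = 3 each). The edgeR adjusted p-values were 0.0358 in KO and 0.0163 in WT. The small-subunit assembly factor Ltv1 also fell on PTU/LID in KO (-0.57 ± 0.16 (SE), edgeR adjusted p = 0.0329). Polr1a, the largest subunit of RNA polymerase I, was higher in KO than in WT on PTU/LID, at 369 ± 24.3 CPM against 238 ± 46.1 CPM (0.63 ± 0.14 (SE), edgeR adjusted p = 0.00495). Of the 34 genes edgeR called 2 for diet in KO, 1 for diet in WT and 1 for KO against WT on PTU/LID. Over all genes it called 7.45%, 7.61% and 6.6% in the same order. In the list of 23 common housekeeping genes tested, the transferrin receptor gene Tfrc rose on PTU/LID in both genotypes (0.69 ± 0.13 (SE) in KO, edgeR adjusted p = 0.000926, and 0.41 ± 0.13 (SE) in WT, edgeR adjusted p = 0.0498). The cyclophilin gene Ppia rose in WT (0.50 ± 0.15 (SE), edgeR adjusted p = 0.0366), where DESeq2 called 3 genes of the list higher. For diet, edgeR called 1 of the 23 genes in KO and 2 in WT, against 7.45% and 7.61% of all genes. No gene of that list was called by edgeR or DESeq2 between genotypes. An unadjusted p below 0.05 was reached by 0 on PTU/LID (18.9% of all genes) and 1 on chow (19.7% of all genes).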

How the data were processed

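The deposited table holds whole-number read counts for 12 H3K27ac libraries over 52645 shared regions, made by the authors from mm10 alignments. Per the submitters' processing notes the tools were MACS2 2.1.1, bedtools 2.26.0, Picard 2.8.1, bcl2fastq 2.17.1.14 and Bowtie2 2.2.1; how the shared regions were made is not given in the sources used here. Total counts ran between 2965505 and 7416187 per library.

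Regions were assigned to genes with RefSeq gene bounds of GRCm38.p6 and counts were summed per gene. The gene table gives no strand or exons, so parts of genes were not distinguished; start sites and strands came from the RefSeq promoter table. The main test was edgeR 4.0.16 (R 4.3.3): quasi-likelihood with robust estimates, TMM factors from the gene sums, filterByExpr with a minimum count of 10, all 12 libraries with 1 mean per group, and Benjamini-Hochberg adjustment over 11586 genes, with regions tested alike. DESeq2 1.42.0 was an alternative. Scripts were tested on simulated data. CPM use TMM-scaled totals; within-group SDs of log2 CPM use a pseudocount of 0.5 CPM.

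The members, lists and tests were chosen with earlier results of these data known. Genes were named by a rule: every member with an adjusted p below 0.05, then those with the smallest p up to 5 per comparison, and the 6 highest and 6 lowest by level per kb. Some genes that the rule or the lists hold are not reported here. The lists were cytosolic ribosomal proteins with other symbols, mitochondrial ribosomal proteins, translation factors, ribosome biogenesis, regulators, housekeeping genes and liver cell type markers. Alternatives were other scalings (7 in all), no filter, DESeq2, assignment rules, leaving out mitochondrial regions, a term for mitochondrial share above or below 2%, leaving out each library, and, added after seeing the data, leaving out regions in noncoding genes and a term for total counts. Of chrM, 4 regions and 16 nuclear regions that followed them (correlation above 0.9) were in the counts.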

Additional observations from a re-analysis of the deposited data

How the results depend on the processing

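No paired analysis was possible because the library numbers are not shared between the groups compared. Leaving out each library in turn gave 0 to 1 calls for diet in WT, 0 to 2 for diet in KO, 0 to 1 for KO against WT on chow, 0 to 2 for KO against WT on PTU/LID and 0 to 0 for the interaction. The medians then ran between -0.03 and 0.03, -0.12 and 0.02, -0.11 and -0.05, -0.20 and -0.05, and -0.10 and 0.02 in the same order. Over all genes, these fits called 2.92% to 13.8% for diet in WT, 4.02% to 10.2% for diet in KO and 1.04% to 7.25% for KO against WT on chow. They called 3.18% to 8.84% for KO against WT on PTU/LID and 0.0518% to 0.725% for the interaction. For diet in KO, total counts only gave 1 call (8.16% of all genes called) and the total-count term 2 (Rpl36 higher, Rpl30 lower; 12.7% of all genes). For KO against WT on chow, total counts only gave 4 calls (7.95% of all genes) and a median of -0.23, and the mitochondrial-share term gave 3 (Rps3 and Rps16 lower, Rps23rg1 higher; 13.3% of all genes). In each of these fits the called share of the 79 genes was below that of all genes. For KO against WT on PTU/LID, regions within 2.5 kb and the total-count term gave 1 call each (5.44% and 6.24% of all genes). For diet in WT, Rpl5 turned to -0.11 with regions within 2.5 kb. The share of counts moved by more than the spread between libraries to 0.249% in WT PTU/LID without shared regions, to 0.238% in WT PTU/LID and 0.232% in WT chow within 2.5 kb, and to 0.234% in KO chow, 0.263% in WT PTU/LID and 0.262% in WT chow without mitochondrial counts in the total. The causes were not tested. Genes with few counts, such as Rpl38, had the widest intervals, and 3 libraries a group limit what could be detected.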
